A study of Rattus norvegicus with 6 samples.

Results

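Glycolysis splits glucose into pyruvate and yields ATP without oxygen. Glucose enters the cell through facilitative transporters, is trapped as glucose 6-phosphate by hexokinases, and passes through phosphofructokinase, aldolase, glyceraldehyde-3-phosphate dehydrogenase, phosphoglycerate kinase, enolase and pyruvate kinase before lactate dehydrogenase reduces the pyruvate. Growing and activated fibroblasts are known for a high glycolytic rate, and several of these genes are classical targets of the hypoxia-inducible factors.

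The genes described here are 10 listed genes of this route: Slc2a1, Hk1, Hk2, Pfkl, Aldoa, Gapdh, Pgk1, Eno1, Pkm and Ldha. A probe set counted as theirs only if the array annotation named exactly 1 gene for it. That gave 14 probe sets of 8 genes, among 8740 probe sets and 4736 genes so named on the array. Gapdh and Ldha had 0 such probe sets, because the 1 probe set of each also names a related locus, so no value is given for either. The list follows the textbook pathway, but it was picked by the same pertussis toxin (PTX) against control values given below, in the sense that earlier results of this comparison were known. PTX minus control differences of these genes are therefore a description with no test, and nothing is supported by them.

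The cells were cardiac fibroblasts in primary culture, isolated from the ventricle of Sprague-Dawley rats aged 1 to 2 days and kept on 6 well plates. For 24 h, 3 cultures received water as control and 3 received PTX, a bacterial toxin that ADP-ribosylates the alpha subunits of Gi and Go proteins and uncouples them from their receptors. The sources used here do not give the dose, the number of animals pooled per culture, or whether replicates came from separate cell isolations. Errors and p-values therefore reflect the scatter among these samples alone, which may be technical. RNA of each sample was read on a 1-colour Affymetrix array. Values are deposited linear signals per probe set, and the number of arrays limits their precision.

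Control replicate 1 stood apart: its Pearson correlation with the other 5 arrays across all probe sets was 0.952 to 0.960 on the log2 scale, against 0.978 to 0.985 among those 5. For many of the log2 changes described below, though not for all, the value without this array follows. Collagen transcripts of fibroblasts were bright (Col3a1, 20222 ± 1932 in controls and 17301 ± 1486 with PTX; SD, n = 3 each), but so were markers of heart muscle cells (Myl2, 52335 ± 15205 and 42453 ± 4037), so the signals are not those of fibroblasts alone. The Myl2 change of -0.27 was -0.04 without control replicate 1. Summed over 1 probe set for each of 18 measured cardiomyocyte markers, the signal was 307110 to 386930 on the control arrays and 267340 to 301520 on the PTX arrays, so the groups did not overlap. Of 17 such markers tested, 14 were lower, with a median log2 change of -0.22, which was -0.10 without control replicate 1, -0.05 with quantile normalization (9 lower) and -0.07 with cyclic loess (10 lower). In bulk samples, fewer cells of a type and less RNA per cell cannot be told apart. Over 12 fibroblast markers the summed signal was 97476 to 116040 and 99705 to 103720, so these groups overlapped. Of the 12, 6 were lower and 6 higher, from -0.97 for Thy1 to 1.10 for Lum (0.74 without control replicate 1). Their median log2 change was -0.07, or 0.05 with quantile normalization. Over 8 measured macrophage and leukocyte markers the summed signal was 3477 to 3532 and 4227 to 5388, higher on all PTX arrays. Most of it was from Lyz2 (means 2381 and 3445). The Lyz2 probe set is rc_AA892775_at, of a name prefix whose probe sets were mostly higher with PTX. Of 5 such genes tested, Lyz2 (0.52), Fcgr2b (0.88) and Cd14 (0.15) were higher, and C1qb (-0.39) and C1qc (-0.24) lower. For C1qb and C1qc these were -0.23 and 0.00 without control replicate 1. The brightest markers of the other cell types were, as control and PTX means, Acta2 of smooth muscle and activated fibroblasts (6193 and 8178, its control replicate 1 at 2458), Kdr of endothelium (84.8 and 82.6), Nefl of neurons (22.6 and 30.5) and Alas2 of erythroid cells (36.7 and 47.0). Nefl was too dim to be tested. Hbb, another erythroid marker, was also too dim and went the other way from Alas2 (32.1 and 17.2). The Acta2 change of 0.59 was 0.03 without control replicate 1, and its other probe sets had -0.11 and -0.19. None of the markers measured was at 0 on all 6 arrays.

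PTX cultures had lower Hk2 signals than control cultures, by 1.53-fold, on its brighter probe set, with no overlap of the groups. For Slc2a1, Hk1, Pfkl, Aldoa and Pkm the groups overlapped on every probe set, and for Eno1 on 1 of 2. Pgk1 was contradictory, since its brightest probe set was higher with PTX and its others lower. Of the 13 probe sets above the filter on low signals, 12 were lower with PTX, with a median log2 change of -0.19, on the scale of log2(signal + 16) used throughout. Across all 5244 probe sets tested 52.9% were lower, with a median of -0.02.

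Promoter windows show the start sites of the 2 hexokinases and of Eno1, the genes whose probe sets are compared most closely below. They are from RefSeq, assembly GRCr8, and run from 250 bases before to 50 after a gene's start, 5′ to 3′ on the gene's strand. Capitals mark every match, on either strand, to ACGTG (the core of the hypoxia response element), TGACG (the half-site of the cAMP response element) and GGGCGG (the GC box bound by Sp1). The Hk2 window lies at chr4:116841226-116841525 on the minus strand, the Hk1 window at chr20:30842023-30842322 on the minus strand, and the Eno1 window at chr5:166003111-166003410 on the plus strand. For Hk1 and Eno1 the window of the start farther downstream is shown.
Hk2: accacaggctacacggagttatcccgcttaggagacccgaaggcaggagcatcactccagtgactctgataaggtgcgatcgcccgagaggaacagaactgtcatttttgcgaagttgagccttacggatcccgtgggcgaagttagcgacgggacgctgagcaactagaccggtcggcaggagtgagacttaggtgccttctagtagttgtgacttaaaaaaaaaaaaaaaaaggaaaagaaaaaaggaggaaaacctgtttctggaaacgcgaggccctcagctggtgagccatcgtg
Hk1: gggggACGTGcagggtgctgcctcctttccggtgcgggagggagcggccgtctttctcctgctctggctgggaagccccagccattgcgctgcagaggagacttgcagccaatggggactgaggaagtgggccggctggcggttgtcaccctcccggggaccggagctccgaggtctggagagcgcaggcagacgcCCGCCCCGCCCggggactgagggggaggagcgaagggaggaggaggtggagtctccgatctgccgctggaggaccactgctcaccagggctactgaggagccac
Eno1: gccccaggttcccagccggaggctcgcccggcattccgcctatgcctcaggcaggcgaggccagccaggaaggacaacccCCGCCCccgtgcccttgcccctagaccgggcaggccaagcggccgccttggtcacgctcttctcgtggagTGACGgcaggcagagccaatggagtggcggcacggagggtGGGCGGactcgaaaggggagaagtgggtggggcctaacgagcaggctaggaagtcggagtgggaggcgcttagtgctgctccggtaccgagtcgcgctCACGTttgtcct
Of the listed genes 9 had a window in the sequences used here, Pgk1 being the one without, and some had several, 13 windows in all. ACGTG occurred in 6 of these 13 windows, of 6 genes (Slc2a1, Hk1, Aldoa, Gapdh, Eno1 and Ldha), against 19.3% of all 33469 windows. TGACG occurred in 5 of the 13, of 4 genes (Hk1, Gapdh, Eno1 and Ldha), against 21.2% of all windows. GGGCGG occurred in 7 of the 13, of 7 genes (all but Hk2 and Gapdh), against 33.1%. The longer E-box CACGTG, which contains ACGTG, was found in 1 of the 13, that of Ldha, against 6.42%. The Hk2 window held no match to any of these letters, had a GC content of 51.0%, and contains a run of adenines. The Hk1 window shown had 69.3% and that of Eno1 68.3%. Hk2 was not set apart by this, since the windows not shown were at 50.7% for Hk1 and 57.3% for Eno1. Those windows held TGACG but neither ACGTG nor GGGCGG. Aldoa also had windows with no match, at 60.7% and 54%. A match is a description of letters, not of a bound site.

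Slc2a1 encodes GLUT1, the transporter that carries basal glucose uptake in most dividing cells. Its brighter probe set, S68135_s_at, read 2393, 2883 and 2346 in the controls and 2567, 2037 and 2452 with PTX. The groups overlapped, and the log2 change was -0.11 ± 0.15 (SE of the limma fit across all tested probe sets, n = 3 each). The dimmer one, M13979_at, read 890, 676 and 735 in the controls against 702, 586 and 555 with PTX, a log2 change of -0.31 ± 0.16, or -0.20 without control replicate 1. Here too the groups overlapped, with PTX replicate 1 above control replicate 2. Over the 6 arrays the 2 probe sets correlated weakly (Pearson r = 0.19, a description).

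Hexokinases 1 and 2 both phosphorylate glucose and both can dock to the outer mitochondrial membrane; hexokinase 1 is the housekeeping form, and hexokinase 2 is the insulin-responsive form of heart, skeletal muscle and fat. Hk2 on D26393exon_s_at read 1617, 1706 and 1501 in the controls (mean 1608 ± 102, SD) and 1096, 1065 and 981 with PTX (mean 1047 ± 59.3). All 3 PTX arrays lay below all 3 control arrays. The log2 change was -0.61 ± 0.12, and 112 of the 5244 tested probe sets, 2.14%, had a lower one. It was -0.61 without control replicate 1, and lay between -0.66 and -0.57 over all settings tried.

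The second Hk2 probe set, M68971_at, read 236, 300 and 279 in the controls and 253, 181 and 211 with PTX. These groups overlapped through the low control replicate 1, and the log2 change was -0.32 ± 0.17, or -0.41 without that array. The 2 Hk2 probe sets had the same direction and a correlation of 0.73 over the 6 arrays. As background, a name ending in _s_at marks probes that can match more than 1 transcript.

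Hk1 on rc_AI012593_at read 2671, 2726 and 2559 in the controls and 2618, 2290 and 2254 with PTX, a log2 change of -0.15 ± 0.12. PTX replicate 1 lay within the control range and the other PTX arrays below it. On U27319exon_at it read 248, 127 and 154 against 147, 203 and 159, a log2 change of -0.02 ± 0.25. That value became 0.24 without control replicate 1, which was the highest array, so this probe set has no settled direction. Among the hexokinase probe sets, groups without overlap were seen for Hk2 on D26393exon_s_at alone.

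Pfkl encodes the liver-type subunit of phosphofructokinase, the main control step of glycolysis. Its probe set read 679, 602 and 571 in the controls and 488, 610 and 704 with PTX. The PTX arrays spanned the whole control range, the log2 change was -0.05 ± 0.17, and it was 0.02 without control replicate 1. Aldoa, the aldolase of muscle and most other tissues, read 10299, 12648 and 10389 in the controls against 10383, 9472 and 9312. Only control replicate 2 stood clearly above the PTX arrays, and the log2 change was -0.19 ± 0.12.

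**Figure D1:**
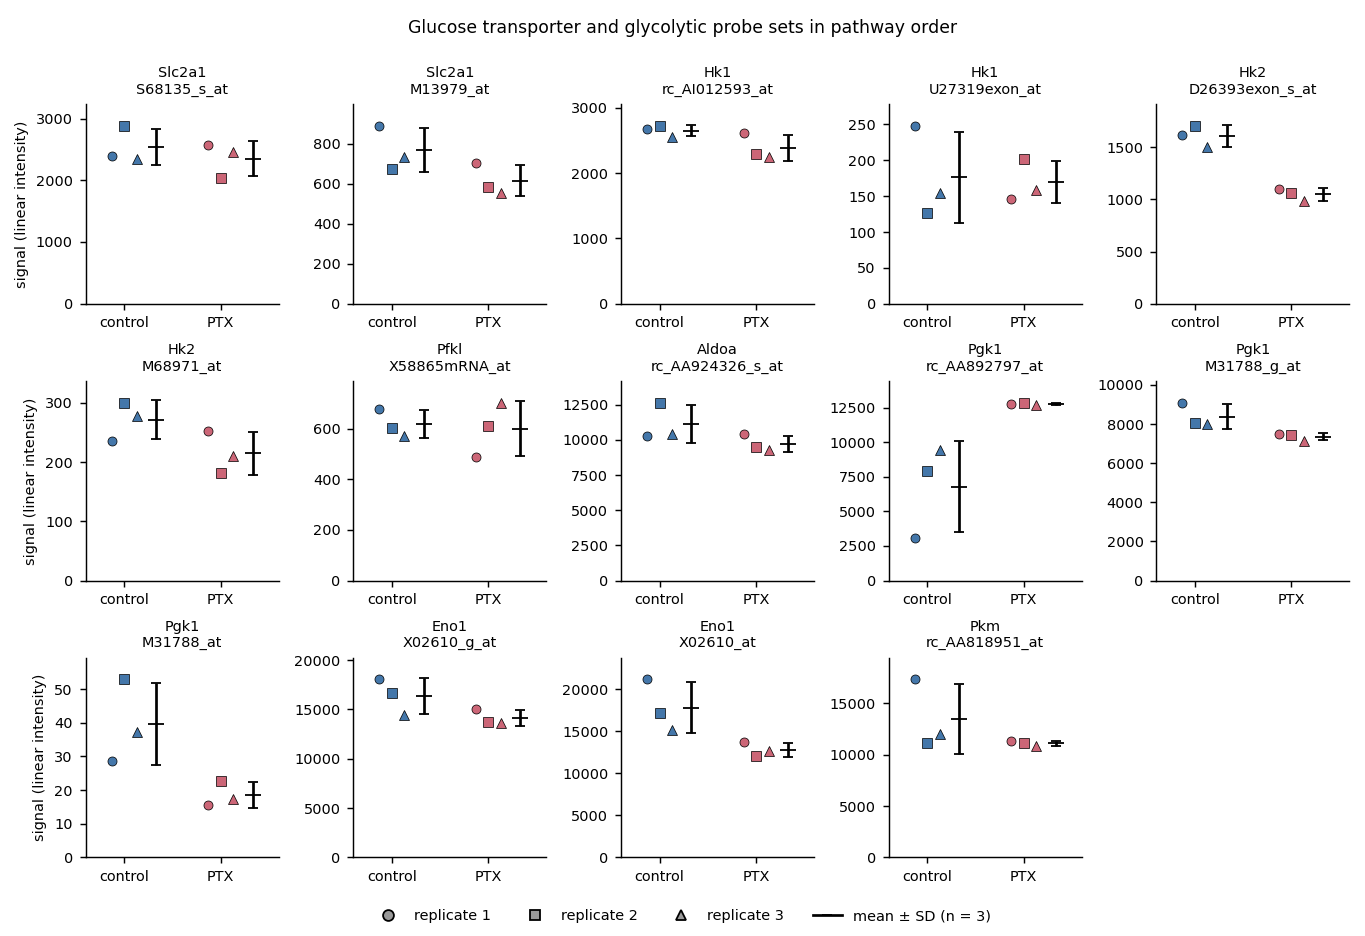
Deposited signals (linear intensity, axes from 0) of all 14 probe sets of the 8 measured genes in pathway order; points are single arrays, marker shapes are replicate numbers, and bars are the mean ± SD of 3 arrays. The 3 PTX arrays of Hk2 on D26393exon_s_at lie at 981 to 1096, below the 3 controls at 1501 to 1706, and Pgk1 on rc_AA892797_at differs in direction from the other Pgk1 probe sets.

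Pgk1 encodes phosphoglycerate kinase 1, the first ATP-producing enzyme of the route, and its 3 probe sets disagreed. On rc_AA892797_at the controls read 3065, 7904 and 9418 and the PTX arrays 12790, 12874 and 12705. All PTX arrays were higher, by a log2 change of 1.06 ± 0.37, and the controls differed more than 3-fold among themselves whereas the PTX arrays were nearly equal. Its name puts it among the 420 tested probe sets with the prefixes rc_AA892, rc_AA893 or rc_AA894, which had a median log2 change of 0.29, with 21.0% lower. Without control replicate 1 the change of this probe set was 0.57 and the median of those 420 was 0.16.

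On M31788_g_at, made to another Pgk1 sequence, the controls read 9097, 8049 and 7989 and the PTX arrays 7477, 7440 and 7139. All 3 PTX arrays were below all controls here, with a log2 change of -0.19 ± 0.11, or -0.13 without control replicate 1. Over the 6 arrays its correlation with rc_AA892797_at was -0.96. The dim M31788_at fell under the filter and was not tested; it read 28.7, 52.9 and 37.3 in the controls and 15.5, 22.8 and 17.2 with PTX (log2 change -0.67). From -0.67 to 1.06, the Pgk1 probe sets give no single direction for the transcript.

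Eno1 encodes alpha-enolase, which makes phosphoenolpyruvate. On X02610_at it read 21168, 17175 and 15105 in the controls and 13742, 12081 and 12598 with PTX, so that all PTX arrays were below all controls. The log2 change was -0.46 ± 0.14, or -0.33 without control replicate 1. Its partner X02610_g_at, to the same accession, read 18038, 16645 and 14405 against 15026, 13721 and 13653. These groups overlapped through PTX replicate 1, with a log2 change of -0.21 ± 0.12, or -0.13 without control replicate 1. The 2 correlated at 0.96 over the arrays, but control replicate 3 lay above PTX replicate 1 on the first and below it on the second.

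Pkm encodes the muscle-type pyruvate kinases, whose M1 and M2 forms arise by splicing and are not told apart here. It read 17340, 11114 and 11982 in the controls and 11371, 11105 and 10811 with PTX. Control replicate 1 alone lay far above the rest, and the groups overlapped. The log2 change of -0.25 ± 0.17 was -0.06 without that array, so most of this difference rests on 1 control.

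**Figure D2:**
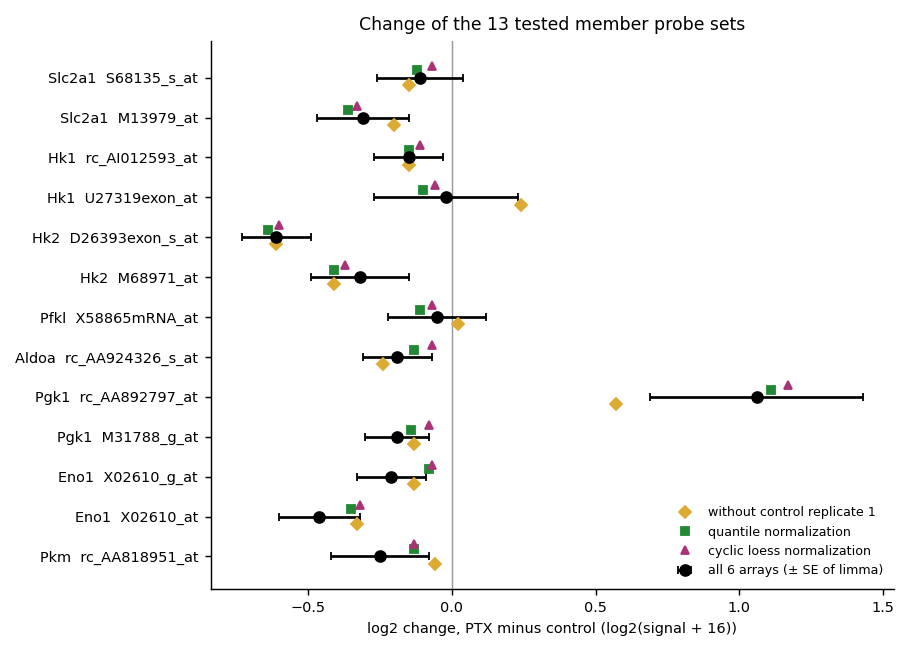
Log2 change of PTX minus control for the 13 tested probe sets (x axis) by gene and probe set (y axis); black points with bars are the fit of all 6 arrays ± SE, diamonds leave out control replicate 1, squares are quantile normalization and triangles cyclic loess. Hk2 on D26393exon_s_at stays between -0.64 and -0.60 in all 4, whereas Pgk1 on rc_AA892797_at goes from 1.06 to 0.57 without control replicate 1 and Pkm from -0.25 to -0.06.

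Among the 8 genes, each by its brightest tested probe set, 7 were lower with PTX and Pgk1 was higher, with a median log2 change of -0.17. For Pgk1 the choice of probe set sets the direction: rc_AA892797_at is the brighter on the PTX arrays, but on average M31788_g_at, which was lower, is the brighter in controls (8378 against 6796). With probe sets of 5 name prefixes left out (rc_AA799, rc_AA800, rc_AA892, rc_AA893 and rc_AA894), all 8 genes were lower (median -0.19). Of the 13 tested probe sets 3 were lower without overlap of the groups (Hk2 D26393exon_s_at, Pgk1 M31788_g_at and Eno1 X02610_at), where 10.6% of all tested probe sets were, and 1 was higher without overlap (Pgk1 rc_AA892797_at), where 12% were. In the limma fit 0 members were among the 4 probe sets, 0.0763% of those tested, that passed an adjusted p of 0.05. Without adjustment, 2 lower members and 1 higher had a p under 0.05, against 4.61% and 7.97% of all tested probe sets. As the list was drawn up with this contrast known, nothing is read from these counts. Without control replicate 1 the limma fit passed Hk2 on D26393exon_s_at and Pgk1 on rc_AA892797_at, among 115 probe sets, 2.19% of those tested. It is a fit of the same contrast, so nothing is read from these passes either. In that fit 10 of 13 members were lower (median -0.15), against 52.3% of all tested probe sets.

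Bright probe sets as a class were lower on the PTX arrays. The brightest 20% of the tested probe sets, 1049 in number and holding 9 of the 13 members, had a median log2 change of -0.10, with 64.4% lower. Without control replicate 1 this median was -0.06, with 63.4% lower. Cyclic loess normalization, which removes a trend with brightness, gave this class a median of -0.03 and the 13 members -0.08. Under it Eno1 X02610_g_at had -0.07, Pgk1 M31788_g_at -0.08 and Aldoa -0.07, whereas Hk2 D26393exon_s_at had -0.60. The same 12-to-1 split of direction was found with common median scaling, quantile and cyclic loess normalization. Probe sets not named rc_ had a median of -0.10, and the 9 members among them -0.21, or -0.05 and -0.15 without control replicate 1. The summed cardiomyocyte marker signal, as deposited, was lower on all PTX arrays, and the summed macrophage marker signal, mostly Lyz2, was higher. Their part in the members' values was not tested.

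The members' mean centred log2 profile over the 8 genes ran from 0.11 in control replicate 2 to -0.06 in PTX replicate 2. Each gene entered by its brightest probe set, so Pgk1 entered by rc_AA892797_at, which read only 3065 in control replicate 1. That probe set went against the other Pgk1 probe sets. In control replicate 1, where the members' profile stood at -0.03, rc_AA892797_at had its lowest reading and M31788_g_at its highest, 9097. The profile and the genes most like it thus depend on the choice of Pgk1 probe set. A profile without rc_AA892797_at was not computed. The other genes whose values over the 6 arrays were most like the members' profile were Ptp4a1 (Pearson r = 0.988), Nkiras2 (0.983), Ptgds (0.978), Angpt2 (0.970) and Dnajc5 (0.970). Their log2 changes were -0.15, -0.15, -0.13, -0.58 and -0.19. The points share 6 arrays and their scaling, and these r values were picked as the highest of all named genes.

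Genes around the route, which are not among the members, were tested with the same limma fit. Over 86 tested probe sets of 7 related lists 0 passed an adjusted p of 0.05. Without adjustment 9 higher and 7 lower had a limma p under 0.05, against 7.97% and 4.61% of all tested probe sets. Groups did not overlap for 13 higher and 12 lower of the 86, against 12% and 10.6% of all tested. Directions without overlap given below are thus not particular to these lists. The median log2 change of the 86 was 0.00, with 43 lower. The values below are therefore of genes that did not pass.

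Other glycolytic enzymes had 8 tested genes of 10 measured, with 3 lower, 5 higher and a median of 0.03, or 0.17 without control replicate 1. The subunits of phosphofructokinase differed in direction. Pfkp, the platelet-type subunit, read 5227, 5420 and 5041 in the controls against 4408, 4337 and 4405 on L25387_g_at, with all PTX arrays lower (log2 change -0.25 ± 0.10, limma adjusted p = 0.388). Its other probe set was also lower without overlap (-0.31 ± 0.13, limma adjusted p = 0.390). Pfkm, the muscle-type subunit, read 1314, 1205 and 1347 against 1521, 1495 and 1444 on U25651_at, with all PTX arrays higher (0.21 ± 0.12, limma adjusted p = 0.469). Its second probe set was higher without overlap as well (0.39 ± 0.18, limma adjusted p = 0.428). Without control replicate 1 these 4 values were -0.25, -0.30, 0.22 and 0.44. Pgam1, phosphoglycerate mutase, had -0.35 ± 0.18 on its brightest probe set (limma adjusted p = 0.443), -0.15 without control replicate 1, and -0.01 and 0.12 on its others, or -0.09 and -0.06 without that array.

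Among regulators, 13 genes of 15 measured were tested, 9 lower and 4 higher, with a median of -0.18. Pyruvate dehydrogenase kinases block the entry of pyruvate into the citric acid cycle. Pdk1, the hypoxia-induced form, read 1682, 1639 and 1322 in the controls and 1275, 1118 and 1191 with PTX, with no overlap (-0.36 ± 0.14, limma adjusted p = 0.368). Pdk2, named after its values were seen, read 998, 1041 and 1132 against 1270, 1373 and 1256 on its brighter probe set (0.30 ± 0.12, limma adjusted p = 0.390), and its other probe set was higher without overlap too (0.33, or 0.15 without control replicate 1). Pdk4, the starvation-induced form, was dim, with means of 24.4 ± 7.59 and 48.9 ± 12.1 (0.68 ± 0.28, limma adjusted p = 0.387; 0.60 without control replicate 1). Hif1a, the oxygen-regulated transcription factor subunit, had 109 ± 39.3 and 171.5 ± 8.31 (0.63 ± 0.26, limma adjusted p = 0.378), or a log2 change of 0.34 without control replicate 1.

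**Figure D3:**
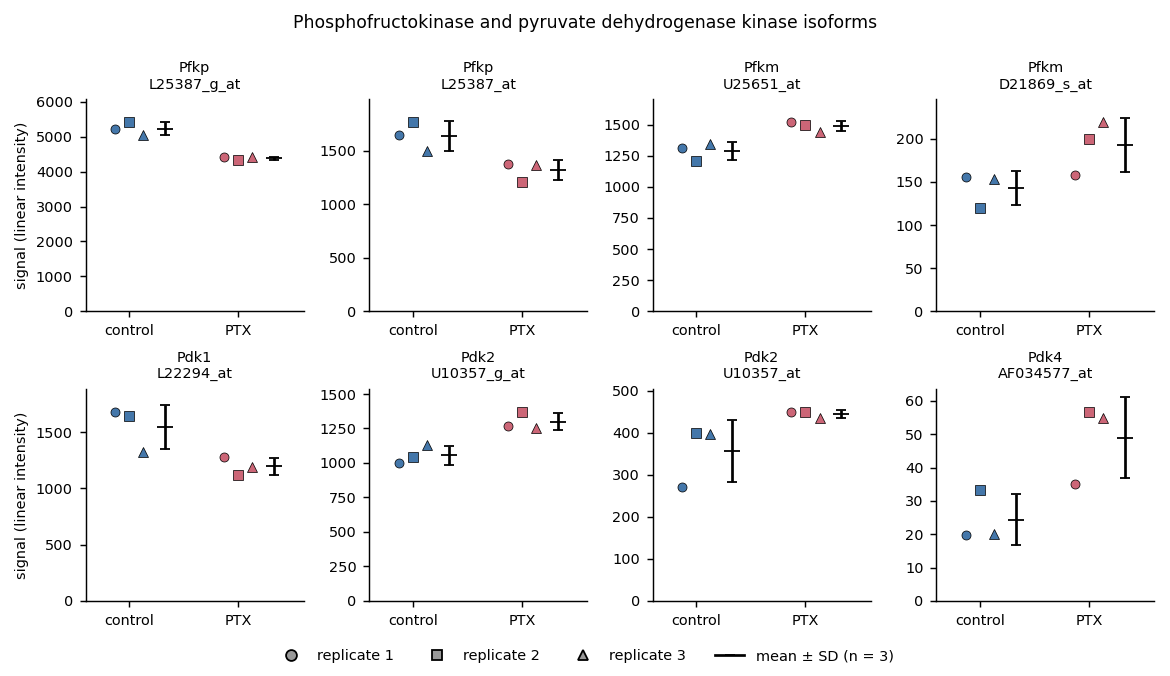
Deposited signals (linear intensity, axes from 0) of probe sets of phosphofructokinase subunits Pfkp and Pfkm and of pyruvate dehydrogenase kinases Pdk1, Pdk2 and Pdk4; points are single arrays and bars the mean ± SD of 3 arrays. Both Pfkp probe sets and Pdk1 are lower and both Pfkm and both Pdk2 probe sets higher on all 3 PTX arrays, and 0 of these passed the limma threshold.

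Hypoxia-induced genes outside the route had 5 tested genes of 6 measured, 3 lower and 2 higher, with a median of -0.09. Vegfa, the endothelial growth factor, had 835 ± 127 and 618 ± 65 on L20913_s_at (-0.42 ± 0.16, limma adjusted p = 0.366), -0.31 without overlap on M32167_at, -0.21 on M32167_g_at and -0.09 on its brightest probe set. With control replicate 1 left out these were -0.31, -0.33, -0.39 and -0.06. P4ha1, a collagen prolyl hydroxylase subunit, had 3232 ± 354 and 2643 ± 51.3 (-0.28 ± 0.12, limma adjusted p = 0.406), with no overlap. Bnip3l, a mitophagy receptor, went the other way at 0.53 ± 0.22 (limma adjusted p = 0.390), with control replicate 3 at 4243 among PTX arrays of 4139 to 4304, and 0.34 without control replicate 1.

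For glucose and lactate transport 7 genes of 9 measured were tested, 3 lower and 4 higher, with a median of 0.03. Slc2a4, the insulin-responsive transporter GLUT4 of muscle and fat, read 535, 361 and 354 in the controls and 225, 248 and 242 with PTX on D28561_s_at (-0.74 ± 0.19, limma adjusted p = 0.231). Without control replicate 1 this was -0.56. Its brighter probe set, rc_AA799760_s_at, had 0.16, or 0.08 without that array, so the 2 disagreed. Bsg, the chaperone of lactate transporters, had 10099 ± 2148 and 7690 ± 298 (-0.37 ± 0.16, limma adjusted p = 0.397), or -0.21 without control replicate 1. Slc5a1, a sodium-coupled transporter, had dim means of 26.4 and 46.0 on D16101_s_at (0.56 ± 0.27, limma adjusted p = 0.428; 0.68 without control replicate 1). On its brighter probe set, U03120_at, means were 89.5 and 119.5 with overlapping groups (0.38, or 0.17 without that array).

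Genes of mitochondrial pyruvate use had 9 tested of 11 measured, 5 lower and 4 higher, with a median of -0.17, or -0.04 without control replicate 1. Mdh1, the cytosolic malate dehydrogenase of the NADH shuttle, had 12743 ± 1342 and 10369 ± 322 (-0.29 ± 0.12, limma adjusted p = 0.374), or -0.21 without control replicate 1. Pdhb and Pdhx, parts of pyruvate dehydrogenase, had 0.98 ± 0.29 (limma adjusted p = 0.302; 1.26 on a second probe set) and 0.61 ± 0.28 (limma adjusted p = 0.418), both on probe sets of the prefixes that carry Pgk1 rc_AA892797_at. Without control replicate 1 they had 0.75 (0.96 on the second Pdhb probe set) and 0.30.

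In the pentose phosphate pathway the 2 tested genes were Taldo1 and Tkt. Taldo1, transaldolase, had 601 ± 211 and 1199 ± 84.2 on a probe set of prefix rc_AA799 (1.03 ± 0.25, limma adjusted p = 0.220), and passed without control replicate 1 (0.76, limma adjusted p = 0.0226). Tkt, transketolase, had -0.27 on its brighter probe set and 0.29 on the other, or -0.21 and 0.07 without control replicate 1. Of 7 tested genes of glycogen, hexosamine and polyol routes 3 were lower and 4 higher, with a median of 0.03. Pygb, the brain-type glycogen phosphorylase, had 0.72 ± 0.15 (limma adjusted p = 0.184) and 0.52 ± 0.16 (limma adjusted p = 0.297) on probe sets of prefix rc_AA800, and 0.37 on M27726_at with overlapping groups. These were 0.64, 0.63 and 0.58 without control replicate 1, where both rc_AA800 probe sets passed (limma adjusted p = 0.0363 and 0.0331). Gyg1, glycogenin, had 0.22 on its brightest probe set and -0.16 and -0.13 on others, and Pgm1, phosphoglucomutase, -0.18, 0.09 and -0.02, the 0.09 being -0.06 without that array. The gluconeogenic genes measured, Pck1, Fbp1 and Fbp2, all lay under the filter, at signals of 45.2 or less on every array.

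**Figure D4:**
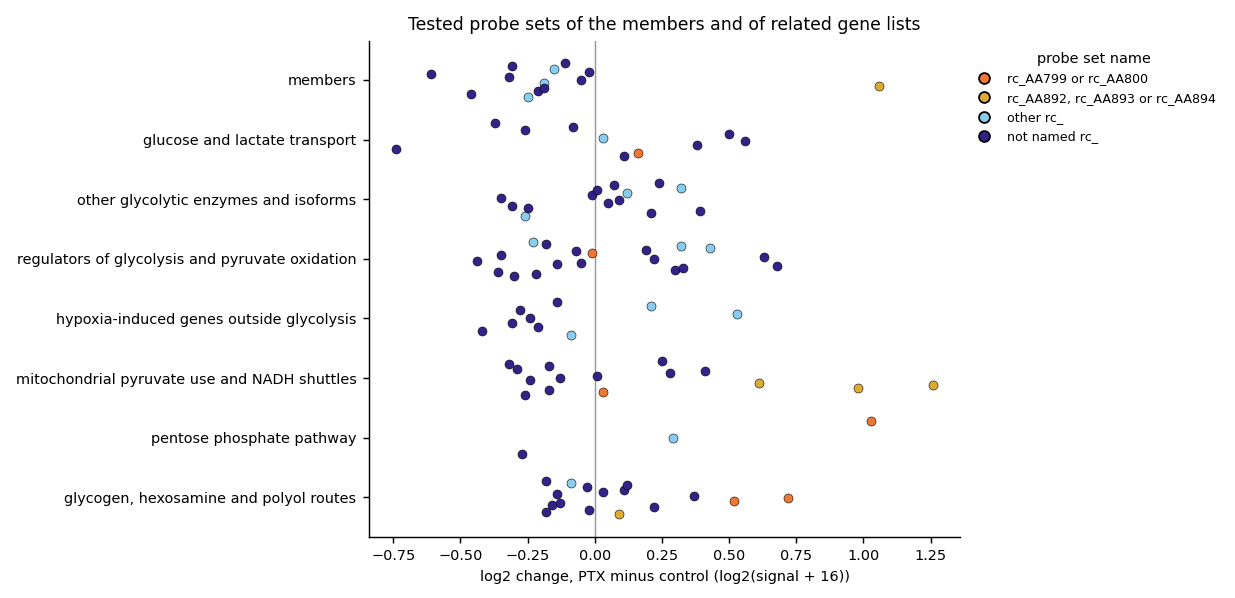
Log2 change of PTX minus control (x axis) of every tested probe set of the members and of 7 related lists (y axis), coloured by the start of the probe set's name. The members lie between -0.61 and -0.02 except Pgk1 rc_AA892797_at at 1.06, and the 4 highest values of the related lists are on rc_AA892, rc_AA799 and rc_AA800 probe sets.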

How the data were processed

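Per the submitters' processing notes, the authors used the Affymetrix program GCOS; the sources used here do not give its version, scaling target or detection calls. What they deposited is 1 column of linear intensity per array, and 0 other per-sample columns were found. Because the trimmed means (2% trimmed) lay between 493 and 495 on all 6 arrays, no further scaling was done. No 2 arrays held identical values. Probe sets were named from the platform annotation: 7006 name 1 gene, 308 several and 1426 none. For 6985 of those with 1 gene, the symbol was taken by Entrez identifier from a RefSeq table of GRCr8, whether or not it differed.

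Signals were taken as log2(signal + 16), so fold changes understate those of low signals. Probe sets with a mean log2 value under the 40th percentile were left out, leaving 5244. PTX was compared with control by limma 3.58.1 in R 4.3.3 (lmFit, eBayes with an intensity trend, two-sided, Benjamini-Hochberg over all 5244); the procedure was tested on simulated data. Groups and replicate numbers are from the sample titles.

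The members, the related lists, the cell type markers and the tests were chosen with earlier results of these data known. The named genes are every member with all its probe sets, up to 3 genes of each related list with the smallest unadjusted p, the brightest marker of each cell type, and the 5 other genes most like the members' mean profile. Alternatives were other pseudocounts, filters, normalizations, variance models, a replicate block, name prefixes left out and each array left out. A gene in a list is represented by its brightest tested probe set. Protein sequences were not used here.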

Additional observations from a re-analysis of the deposited data

How the results depend on the processing

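Over 19 alternatives, 11 of the 14 member probe sets stayed lower and 1, Pgk1 rc_AA892797_at, stayed higher. Hk1 U27319exon_at and Pfkl changed sign. The log2 change of a probe set cannot move with the filters, the replicate block, robust variances, no trend or left-out prefixes. Only the pseudocounts, normalizations, array quality weights and left-out arrays could change a sign. The count of probe sets called over the whole table, 4, was 2 with log2(signal + 1), 7 with log2(signal + 64), 2 with quantile normalization, 9 with robust variances, 81 with array quality weights, 8 without rc_AA799 and rc_AA800 probe sets and 11 without the 5 prefixes. It was 0 with the replicate block and 0 without a trend (552 and 615 at an unadjusted p under 0.05), and 0 to 115 with 1 array left out; without control replicate 1 it was 115, without control replicate 3 it was 30, and without any 1 PTX array it was 0 (361 to 381 at an unadjusted p under 0.05). The cause of these differences was not tested, except that fewer arrays or probe sets enter some fits. The replicate block left the members at 0 calls and changed no call of a related list. Their median of -0.19 could not change under it, since each replicate number holds 1 array of each group. Deviations of same-numbered arrays correlated at -0.048, -0.052 and 0.012, and those of other pairs at -0.032 to 0.062. The values thus show no pairing by number, but with 3 arrays per group they cannot exclude a shared isolation. Member calls, 0 as given, were 1 with array quality weights (Hk2 D26393exon_s_at) and 0 to 2 with 1 array left out. Nothing is read from these calls, as the members were chosen with this contrast known. The median over member probe sets was -0.08 and over member genes -0.07 with cyclic loess.

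For the related lists, the median was -0.11 for transport with the 60th percentile filter, 0.16 for other glycolytic enzymes with array quality weights, -0.24 for hypoxia-induced genes with each gene's probe sets averaged, 0.03 for mitochondrial pyruvate use with no filter, and -0.27 for the pentose phosphate pathway without the rc_AA799 and rc_AA800 probe sets or all 5 prefixes. With 1 array left out it was -0.08 to 0.17 for other glycolytic enzymes and -0.24 to -0.02 for regulators. Calls were 1 with array quality weights for each of the pentose phosphate pathway (Taldo1) and glycogen routes (Pygb); with 1 array left out they were 0 to 1, 0 to 2 and, for mitochondrial pyruvate use, 0 to 2 (Pdhb, without control replicate 3). Probe sets near the low end, such as Pgk1 M31788_at and Pdk4, carry no detection call, which limits what they show.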
